A study of Mus musculus with 7 samples.

Results

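A set of 10 imprinted growth genes was followed across 7 populations of mouse dermal cells. They are the growth restrainers Phlda2, Cdkn1c, H19 and Grb10, the neighbours Dlk1 and Meg3, and Plagl1, Peg3, Mest and Slc38a4. They were picked by name, with their levels on these same arrays already known, so their levels are given as a description and without a test. The 10 genes were read by 25 of the 55681 probes and stand among 34947 names on the array. Of the 10, 8 were well above background, as marked by the scanner software, on at least 3 of the 7 arrays, and 6 on all 7.

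The study set RNA of dermal myogenic precursor populations on 1-colour Agilent arrays to ask about their relation to muscle satellite cells. The 7 populations carry labels for Sdc4 (syndecan 4, a surface proteoglycan of satellite cells) or Cspg4 (NG2, a proteoglycan of pericytes), and most come from Cre tracer lines. The Sdc4+ arrays are Myf5SOR+ Sdc4+ (the B6.129S4-Myf5tm3(cre)Sor/J line, with Cre in the Myf5 locus), Cspg4- Sdc4+ (the B6,FVB-Tg(Cspg4-cre)1Akik/J line, a transgene driven by Cspg4) and CD1 Sdc4+ (Crl:CD1(ICR)). The Sdc4- arrays are B195AP+ Sdc4- (the B195AP-Cre line, its driver not stated in the labels), Cspg4- Sdc4- and CD1 Sdc4-. The seventh population, Cspg4+, carries the Cspg4-cre transgene and no Sdc4 label. Below, "Cspg4- line" means the Cspg4- Sdc4+ and Cspg4- Sdc4- populations of that same transgenic line. The labels give no reporter allele, no age and no treatment, and do not say how the cells were separated. Each population has 1 array, with 8 to 10 animals per phenotype and 10 to 200 ng of RNA per reaction, per the labels. Nothing says that the arrays of a group are replicates: they differ in mouse line, so an SD below is the spread between lines.

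An imprinted gene is read mainly from the maternal or mainly from the paternal copy, and which one is set by DNA methylation of control regions, laid down on 1 parental copy in the germ line. As a rule the maternally read genes of this set hold growth back, and the paternally read ones promote it. H19 and Dlk1 are abundant in the embryo, fall after birth in most tissues, and are known from developing and regenerating muscle. Arrays of this kind read both copies together and cannot tell the parental alleles apart.

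H19 is read by 7 probes of 60 bases, and 2 of them are shown because they behaved differently: the brightest, at chr7:149761492-149761551, and the only dim one, at chr7:149762417-149762476. One probe each stands for Meg3, at chr12:110809678-110809737, and for Dlk1, at chr12:110698502-110698561, whose levels are described further on. Positions refer to mm9, as named in the file headers, with the H19 probes on the minus strand and the others on the plus strand. Exon borders in that build were not used here. The sequences run 5′ to 3′ in the sense of the transcript.
H19 brightest probe: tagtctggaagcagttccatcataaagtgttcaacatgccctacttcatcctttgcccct
H19 dim probe: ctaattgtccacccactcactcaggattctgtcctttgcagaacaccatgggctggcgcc
Meg3 probe: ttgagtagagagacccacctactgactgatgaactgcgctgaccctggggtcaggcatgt
Dlk1 probe: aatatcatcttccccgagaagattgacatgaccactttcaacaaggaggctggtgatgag

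The H19 transcript also carries the hairpin of miR-675, whose mature arms are shown with their seeds (bases 2 to 8) in capitals, from RefSeq, GRCm38.p6. No H19 probe shared a run of more than 8 bases with the hairpin, so the H19 values are of the long transcript and miR-675 itself was not measured.
miR-675-5p: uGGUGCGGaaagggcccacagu
miR-675-3p: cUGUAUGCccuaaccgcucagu

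All levels below are log2 of the processed signal relative to the 75th percentile of the same array, so 0 is that percentile and a step of 1 is a 2-fold change. Between 45.9% and 57.2% of probes were well above background on an array. Spots of the same probe repeated on an array differed by a median SD of 0.0614 to 0.0815, and by 0.146 on the B195AP+ array. That array had a streaked region. There, 8.17% of spots whose median over the other arrays was above the 75th percentile deviated from that median over 4-fold, in either direction. Outside the region it was 0.832%. All Sdc4+ arrays sat in row 1 of the slide and all 4 others in row 2, so in comparisons of these groups an effect of the row cannot be told apart from one of the Sdc4 label. Pax7, Pax3 and Myf5, the defining genes of satellite cells, were not well above background on any of the 7 arrays. Of the fixed list of 14 satellite cell genes that holds them, 6 to 8 were on each Sdc4+ array. On the Sdc4- arrays it was 7 to 8, and on Cspg4+ 7. Sdc3, Itga7, Cdh15, Vcam1 and Met of that list were well above background on all 7 arrays. So were all 9 fibroblast genes of a fixed list. The Sdc4 transcript itself stood at 3.79, 6.28 and 6.35 on the Myf5SOR+, Cspg4- and CD1 Sdc4+ arrays. It stood at 1.89, 5.10 and 5.27 on the B195AP+, Cspg4- and CD1 Sdc4- arrays. The groups overlapped through the Myf5SOR+ array, while Sdc4+ was the higher side within both lines that have both fractions. In bulk RNA, fewer cells of a type and less RNA per cell cannot be told apart.

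**Figure D1:**
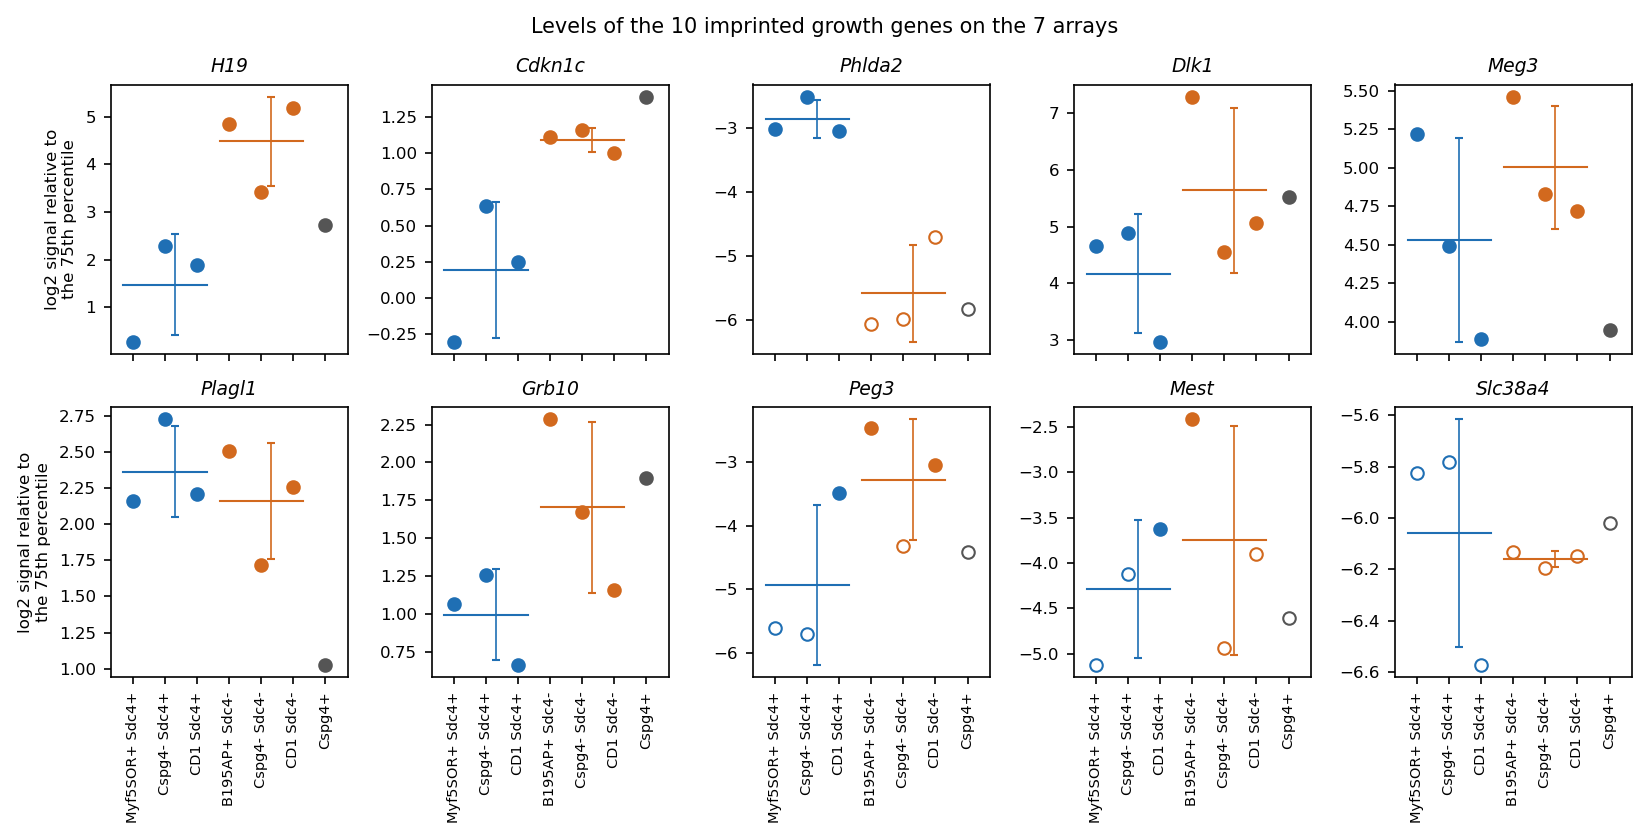
Level of each of the 10 genes (y axis, log2 signal relative to the array's 75th percentile, own scale per gene) on the 7 arrays (x axis). Blue points are Sdc4+, orange Sdc4- and grey Cspg4+; open points were not well above background; horizontal lines are means of 3 arrays and bars 1 SD. H19 and Cdkn1c lie lower on all 3 Sdc4+ arrays than on the 3 Sdc4- arrays, and Phlda2 rises above background on the Sdc4+ arrays only.

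H19, a maternally expressed noncoding RNA that restrains growth, showed the widest spread of the set. On its brightest probe the level was 0.27 on Myf5SOR+ Sdc4+, 2.28 on Cspg4- Sdc4+ and 1.88 on CD1 Sdc4+. On the Sdc4- side it was 4.84 on B195AP+ Sdc4-, 3.42 on Cspg4- Sdc4- and 5.18 on CD1 Sdc4-, and Cspg4+ stood between the groups at 2.73. Every Sdc4+ array was thus below every Sdc4- array. The means were 1.48 ± 1.06 (SD, n = 3) and 4.48 ± 0.93 (SD, n = 3), a difference of -3.00 or 8.01-fold, which is larger than the SD of either group. Among the 19761 genes compared, 9.26% were lower in Sdc4+ without overlap. The H19 range of 4.91 over the 7 arrays was wider than that of 99.8% of the 16632 genes above background on all arrays. The Myf5SOR+ array lay 1.81 below the mean of the other Sdc4+ arrays, and without it the difference between the groups was -2.40.

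The order of the 7 populations was the same on all 6 bright H19 probes. From the highest it ran CD1 Sdc4-, B195AP+ Sdc4-, Cspg4- Sdc4-, Cspg4+, Cspg4- Sdc4+, CD1 Sdc4+ and Myf5SOR+ Sdc4+. With 1 array per population, neighbours in this order cannot be set against a spread between samples. The difference between the Sdc4 groups lay between -3.23 and -2.70 on these 6 probes, which all come from the same RNA. The dim probe shown above was at background throughout, between -6.55 and -5.39, and its neighbours at chr7:149762173-149762232 and chr7:149762113-149762172 dropped to background on the Myf5SOR+ array alone, at -3.59 and -4.05. These 3 probes lay in the region that was streaked on the B195AP+ array, and the other 4 did not. On the Myf5SOR+ array 0.443% of the bright spots in the same region deviated over 4-fold in either direction, against 0.517% outside it.

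**Figure D2:**
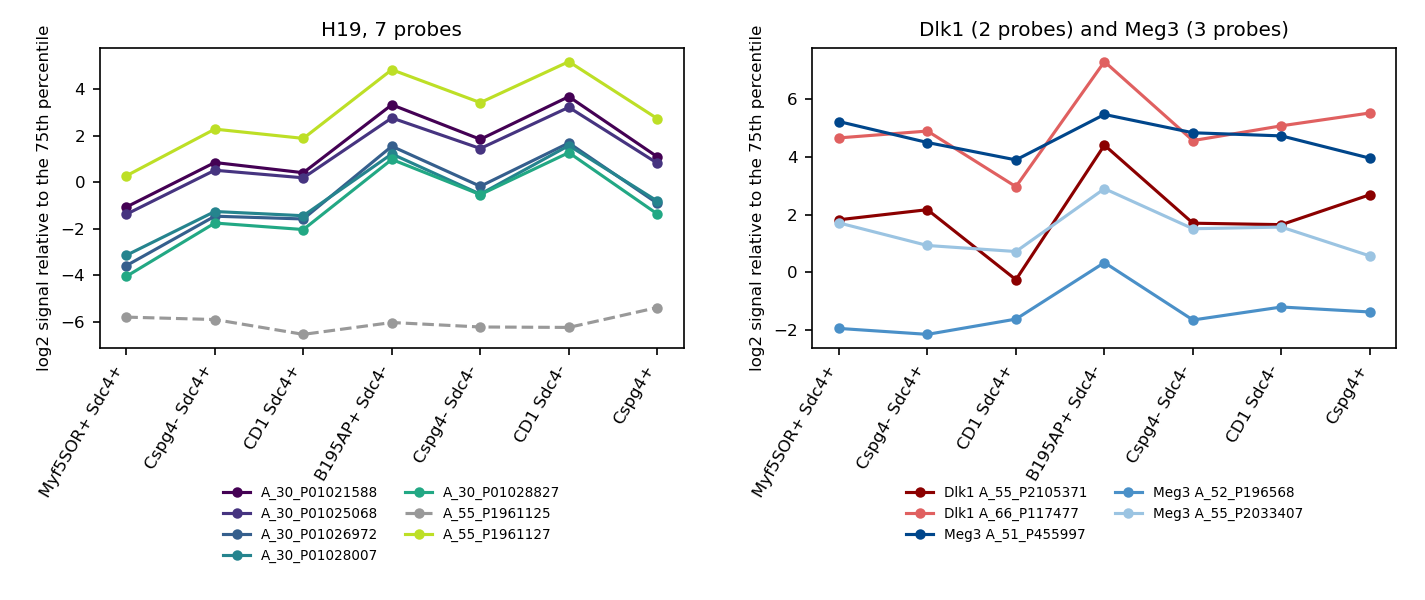
Log2 signal relative to the 75th percentile (y axis) of every probe of H19 (left) and of Dlk1 and Meg3 (right) on the 7 arrays (x axis), 1 line per probe; the dashed grey line is the H19 probe at background on all arrays. The 6 other H19 lines rise and fall together, and both Dlk1 lines peak on B195AP+ Sdc4-.

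Cdkn1c encodes p57Kip2, a cyclin-dependent kinase inhibitor that is read from the maternal copy and acts in cell cycle exit of muscle precursors. Its levels were -0.30, 0.64 and 0.25 on the Myf5SOR+, Cspg4- and CD1 Sdc4+ arrays, against 1.11, 1.16 and 1.00 on the B195AP+, Cspg4- and CD1 Sdc4- arrays and 1.39 on Cspg4+. The Sdc4- values lay close together, below Cspg4+ and above all Sdc4+ values. The means were 0.19 ± 0.47 and 1.09 ± 0.08 (SD, n = 3 each), so the level was 1.86-fold lower in Sdc4+. Unlike H19, Cdkn1c was highest on Cspg4+, above both Cspg4- populations. A fixed list of 15 cell cycle genes overlapped between the groups, with a log2 summed level of 7.17 to 7.70 on Sdc4+ and 7.08 to 8.11 on Sdc4- arrays.

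Phlda2 encodes a small pleckstrin-homology protein that restrains placental growth and is read from the maternal copy, in the same chromosome 7 cluster as Cdkn1c. It ran the opposite way. Its single probe, at chr7:150687464-150687523, read -3.01, -2.50 and -3.04 on the Myf5SOR+, Cspg4- and CD1 Sdc4+ arrays, all well above background. On the B195AP+, Cspg4- and CD1 Sdc4- arrays it read -6.06, -5.99 and -4.71, and on Cspg4+ -5.83, none of them well above background. Against the lowest well-above-background signal of those arrays, Phlda2 was 2.42-fold higher in Sdc4+ than in Sdc4- (measured means -2.85 and -5.59). On the same footing it was 2.66-fold higher within the Cspg4- line and 1.86-fold within CD1. Some probes above that lowest signal were not marked well above background, so these folds are not strict minima. It entered the comparison only through the arrays where it is high, so the gap follows from its selection, and 7.20% of genes were higher in Sdc4+ without overlap. These are dim signals: with normexp background correction the difference was 0.56 in place of 2.74. That is under the log2 value of 1.28 behind the 2.42-fold. The correction adds an offset of 50 to every signal, which compresses differences between dim signals. The drop therefore cannot decide how large the gap is.

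Other genes of that chromosome 7 cluster did not all follow either gene. Kcnq1ot1, the noncoding RNA that silences the cluster on the paternal copy, lay between -0.65 and 0.10 on all 7 arrays, and the groups differed by 0.0007, with no settled sign. Slc22a18, a transporter gene beside Phlda2, stood between -0.90 and -0.13, and Nap1l4, a histone chaperone, between 1.96 and 2.39, with overlapping groups. Ascl2 had a mean 0.73 higher in Sdc4+, by 1.09 within the Cspg4- line and 0.08 within CD1, but its groups overlapped. Tspan32 differed by 0.04, also with overlap, and Kcnq1 was not well above background on any array. Tssc4 was 0.53 higher in Sdc4+ (4.19 to 4.49 against 3.60 to 4.01) and the tetraspanin Cd81 0.37 higher, both without overlap. The gap of Tssc4 held in 3 of 5 other scalings and that of Cd81 in 0 of 5. Neither passed the limma test over all genes (adjusted p = 0.511 and 0.619).

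The differentiated muscle genes were also lower on the Sdc4+ arrays than on the Sdc4- arrays. Of 16 such genes in a fixed list, such as Myog, Myh3 and Acta1, 5, 7 and 11 were well above background on the Myf5SOR+, Cspg4- and CD1 Sdc4+ arrays. On the B195AP+, Cspg4- and CD1 Sdc4- arrays it was 14, 14 and 15, and on Cspg4+ 12. Their log2 summed level was 1.12, 1.42 and 1.70 on the Sdc4+ arrays, 3.43, 4.34 and 6.43 on the Sdc4- arrays and 2.35 on Cspg4+. It was therefore highest on CD1 Sdc4- and lowest on Myf5SOR+ Sdc4+, as was H19. The order in between differed: the sum was higher on Cspg4- Sdc4- than on B195AP+ and higher on CD1 Sdc4+ than on Cspg4- Sdc4+, while H19 ran the other way in both pairs. Cdkn1c did not keep the order of the sum: it was highest on Cspg4+ and, of the Sdc4- arrays, lowest on CD1 Sdc4-. The part of these genes in the H19, Cdkn1c and Phlda2 differences was not tested.

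**Figure D3:**
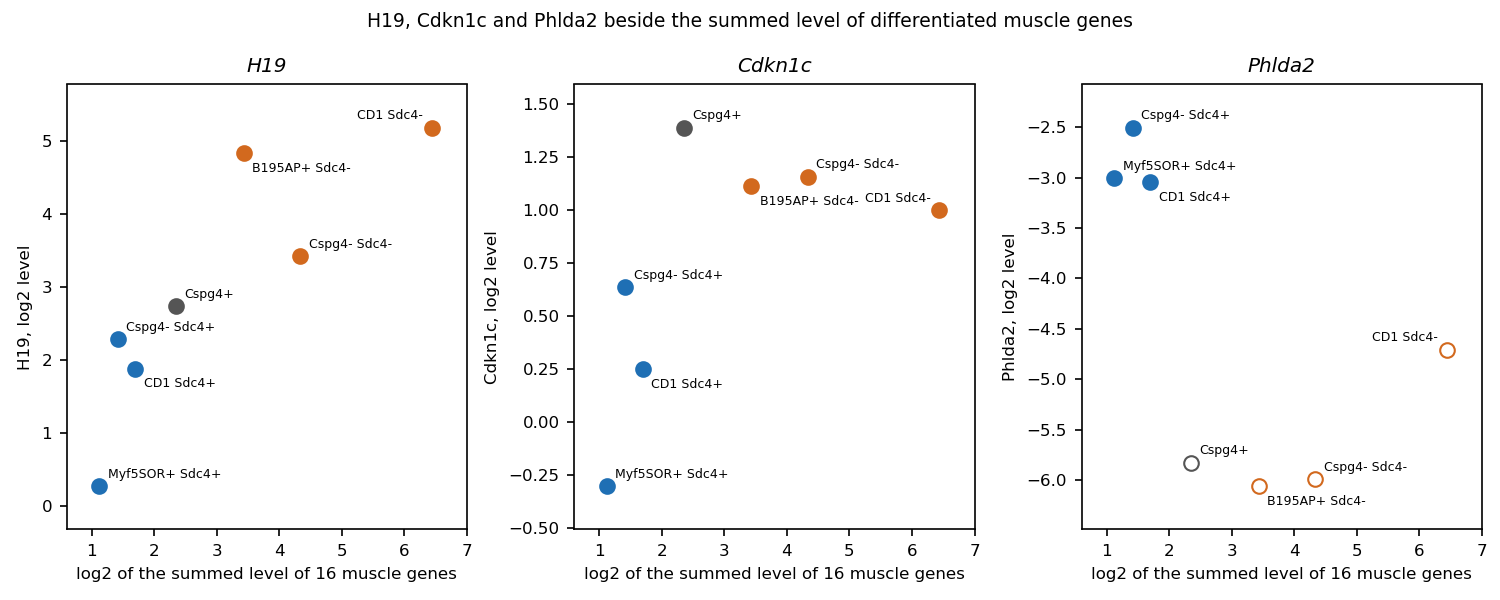
Log2 level of H19, Cdkn1c and Phlda2 (y axes) against the log2 summed level of 16 differentiated muscle genes (x axis), 1 point per array; blue Sdc4+, orange Sdc4-, grey Cspg4+, open points not well above background. The Sdc4- arrays have the highest sums, between 3.43 and 6.43, and H19 is highest on the array with the highest sum.

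Dlk1 encodes a transmembrane protein with EGF repeats, related to Notch ligands, that is read from the paternal copy and is known for holding preadipocytes undifferentiated. Its brighter probe, at chr12:110698721-110698781, read 4.65, 4.89 and 2.96 on the Myf5SOR+, Cspg4- and CD1 Sdc4+ arrays. It read 7.29, 4.56 and 5.07 on the B195AP+, Cspg4- and CD1 Sdc4- arrays and 5.51 on Cspg4+. B195AP+ stood highest and CD1 Sdc4+ lowest, and the Sdc4 groups overlapped. Their means were 4.17 ± 1.05 and 5.64 ± 1.45 (SD, n = 3 each). The difference of -1.47 was about the size of the spread within a group and was -0.65 without the B195AP+ array and -0.87 without the CD1 Sdc4+ array. B195AP+ lay 2.47 above the mean of the other Sdc4- arrays. In that comparison 4.44% of genes were at least 2-fold higher and 6.22% at least 2-fold lower, and of the 6 genes of the set measured there Dlk1 alone passed 2-fold. The Dlk1 probe shown above gave 2.72 for the same gap and also put B195AP+ highest, at 4.40, and CD1 Sdc4+ lowest, at -0.25. Neither Dlk1 probe lay in the streaked region.

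Meg3, the maternally read noncoding RNA of the same chromosome 12 domain, varied less. On the probe shown above it stood at 5.22, 4.49 and 3.89 on the Myf5SOR+, Cspg4- and CD1 Sdc4+ arrays, 5.46, 4.83 and 4.72 on the B195AP+, Cspg4- and CD1 Sdc4- arrays, and 3.95 on Cspg4+. The groups overlapped, with a difference of -0.47. The Myf5SOR+ array was 1.03 above the mean of the other Sdc4+ arrays, while H19 was 1.81 below it there. The other 2 Meg3 probes gave 0.89 and -0.06 for that gap, so the probes disagree on it. In that comparison 1.78% of genes were at least 2-fold higher and 2.01% at least 2-fold lower. B195AP+ was highest on all 3 Meg3 probes, but all 3 lay in the streaked region of that array. Without the region the difference between the groups was -0.24. It was -0.81 without the Myf5SOR+ array and -0.15 without CD1 Sdc4+, and the mean over the 3 probes gave -0.80.

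Of the other transcripts of that domain, Mirg, a noncoding RNA that hosts microRNAs, was also highest on B195AP+, at 3.02, against 2.03 on CD1 Sdc4- and 0.66 to 1.42 on the other arrays. Dio3, which inactivates thyroid hormone, was highest on CD1 Sdc4-, at 0.97, and lowest on Cspg4- Sdc4+, at -0.89. Begain, upstream of Dlk1, ranged from 0.88 on CD1 Sdc4+ to 2.27 on Myf5SOR+ Sdc4+. Rtl1, a retrotransposon-derived gene with a known part in fetal muscle, was well above background on Cspg4+ only, at -2.38. The 4 genes thus put 4 different populations first.

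Grb10, an adaptor that dampens insulin and IGF1 receptor signalling, read 1.07, 1.25 and 0.66 on the Myf5SOR+, Cspg4- and CD1 Sdc4+ arrays, 2.28, 1.67 and 1.16 on the B195AP+, Cspg4- and CD1 Sdc4- arrays and 1.90 on Cspg4+. CD1 Sdc4- fell among the Sdc4+ values. The means were 0.99 and 1.70, and the difference of -0.71, or -0.42 without the B195AP+ array, came with an overlap of the groups. Within both lines Sdc4+ was the lower side, by -0.42 in Cspg4- and -0.49 in CD1.

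Plagl1 (Zac1), a zinc-finger transcription factor read from the paternal copy and known to regulate other imprinted genes, stood at 2.16, 2.73 and 2.21 on the Myf5SOR+, Cspg4- and CD1 Sdc4+ arrays. It read 2.51, 1.72 and 2.26 on the B195AP+, Cspg4- and CD1 Sdc4- arrays. On Cspg4+ it was lowest, at 1.03. The Sdc4 groups overlapped, and the difference of 0.20 turned to -0.02 without scaling. Cspg4+ lay 1.70 on the log2 scale below Cspg4- Sdc4+, the only one of 6 genes to pass 2-fold there, where 3.89% of genes were lower and 2.94% higher by that much. A second probe, with a shared run of 26 bases, also put Cspg4+ lowest, at 0.81, but B195AP+ highest, at 2.64; both lay in the streaked region. The remaining 2 Plagl1 probes were dim but above background outside that region, and their ranges over the arrays were only 0.30 and 0.54, so the 4 probes disagree.

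Peg3 (PW1), a zinc-finger protein of stem and progenitor cells that is read from the paternal copy, was well above background on B195AP+ Sdc4- (-2.47), CD1 Sdc4- (-3.05) and CD1 Sdc4+ (-3.48) only. The other 4 arrays read between -5.70 and -4.31. This brighter Peg3 probe lay in the streaked region. Its difference of -1.65 was -0.16 with normexp correction and -1.25 without that region. The offset of 50 in that correction compresses differences between dim signals. The second Peg3 probe, also in the region, was not well above background on any array, and its groups differed by 0.01. Mest, a paternally read gene of the hydrolase family, was well above background on B195AP+ Sdc4- (-2.42) and CD1 Sdc4+ (-3.63) and on no other array by any of its 3 probes. Slc38a4, an amino acid transporter, was not well above background on any array, with values between -6.57 and -5.78.

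Across the set, 6 of the 8 genes with enough signal had a lower mean in Sdc4+ and 2 a higher one, with a median difference of -0.80 against -0.03 over all genes compared. Without the B195AP+ array that median was -0.53. The genes were picked with these levels known, so the values of the set are a description. Phlda2 and Peg3 count among the 8 through only 3 arrays each, and their other arrays were at background. Among the 6 genes above background on every array, 2 (H19 and Cdkn1c) were lower in Sdc4+ without overlap, where 8.90% of such genes were, and 0 were higher, against 7.43%. The limma test over all 19761 genes called 0 genes at an adjusted p under 0.05, and 1813 (9.17%) had an unadjusted p under 0.05. With the mouse line as a random block it called 3. The median range over the 7 arrays was 1.70 for the 6 genes, against 0.85 for all genes above background throughout. H19 and Dlk1 were the 2 with a range of at least 4, where 0.758% of genes had one.

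Within a mouse line, H19 was lower in Sdc4+ in both. In the Cspg4- line the difference was -1.14, and in CD1 it was -3.30. The Cdkn1c differences were -0.52 and -0.75, both under 2-fold. In the Cspg4- line, H19 was more than 2-fold lower and Plagl1 more than 2-fold higher (by 1.01) in Sdc4+, of 6 genes measured, where 1.87% of genes were lower and 3.54% higher by that much. The other 3 Plagl1 probes gave 0.99, 0.31 and -0.02 there. In CD1, H19 and Dlk1 (by -2.10) were more than 2-fold lower, of 7 genes measured, where 1.90% of genes were lower and 1.36% higher by that much. Each such comparison has 1 array on a side, without a replicate check. Between Cspg4+ and Cspg4- Sdc4-, 0 of 6 genes passed 2-fold, with 1.93% of all genes higher and 1.21% lower by that much. The values nearest to it were Dlk1, 0.96 higher in Cspg4+, and Meg3, 0.88 lower on the log2 scale. The other Meg3 probes gave -0.94 and 0.28 there, so they disagree.

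**Figure D4:**
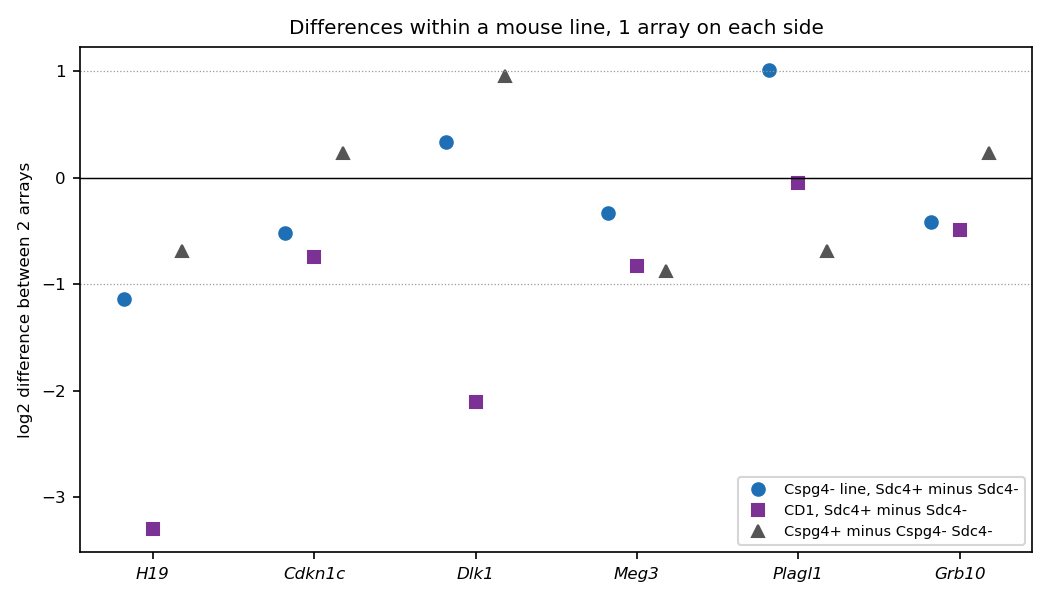
Log2 difference between 2 arrays of the same mouse line (y axis) for the 6 genes above background on all 7 arrays (x axis); circles Cspg4- Sdc4+ minus Cspg4- Sdc4-, squares CD1 Sdc4+ minus CD1 Sdc4-, triangles Cspg4+ minus Cspg4- Sdc4-. Dotted lines mark 2-fold. H19 lies under the lower line in both lines of mice, Dlk1 only in CD1, and Plagl1 passes the upper line only in the Cspg4- line.

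Of 55 other imprinted genes in a list, 39 had enough signal to test, 13 were too dim and 3 were not found by name. In limma 0 of the 39 passed at an adjusted p under 0.05, and 3 had an unadjusted p under 0.05, 2 of them higher in Sdc4+ and 1 lower. Over all genes compared, 9.17% had an unadjusted p under 0.05 in limma. Their groups did not overlap for 6 of 39 (15.4%), 3 in each direction, near the 16.5% of all genes. The median difference was 0.0007. Inpp5f, a phosphoinositide phosphatase, had the smallest p of the list. It read -0.80, -0.69 and -0.79 on the Sdc4+ arrays and 0.19, 0.16 and -0.10 on the Sdc4- arrays, and its gap of -0.84 (adjusted p = 0.429 in limma) held in all 5 other scalings. Zrsr1, a splicing factor gene, differed by 0.86 (adjusted p = 0.522), with a gap in 3 of 5 scalings. Its neighbour Commd1 differed by -0.35 and Copg2, beside Mest, by -0.33, each with a gap in 4 of 5. Ddc, the aromatic amino acid decarboxylase gene beside Grb10, read -2.77 to -0.79 on 6 arrays, highest on B195AP+, and was not well above background on CD1 Sdc4+ (-4.84). Rasgrf1, a Ras exchange factor, read -3.03 to -0.59 on 6 arrays and was not well above background on Cspg4- Sdc4- (-3.86). The groups overlapped for both. The probes of Inpp5f and Zrsr1 lay in the streaked region of the B195AP+ array.

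Igf2, the paternally read growth factor next to H19, was well above background on Cspg4- Sdc4- (-3.20) and CD1 Sdc4- (-2.12) and not on the other 5 arrays, where it read -5.51 to -3.83. The B195AP+ array, second in H19, was among those 5. Igf2r, the receptor that clears IGF2, stood between 3.36 and 4.13 on all arrays. The 5 partners of the pathway in a list (Igf1, Igf1r, Insr, Irs1 and Irs2) overlapped between the groups. In limma 0 of 5 had an unadjusted p under 0.05, where 9.17% of all genes did. Irs2, an adaptor of the insulin receptor, had the largest difference, 0.55, and Igf1 the widest range, 2.13.

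Paralogs of the 10 genes were compared to see whether a family moved as one. Of 11, 10 had enough signal, 0 passed at an adjusted p under 0.05 in limma, and 1, Plagl2, had an unadjusted p under 0.05, where 9.17% of all genes did. The groups did not overlap for 2 of the 10 (20.0%), against 16.5% of all genes. Plagl2, a zinc-finger relative of Plagl1, read -0.44, -0.52 and -1.29 on the Sdc4+ arrays against -2.39, -2.34 and -1.46 on the Sdc4- arrays. Its difference of 1.31 (adjusted p = 0.467) came without overlap and held a gap in 4 of 5 other scalings. Phlda3, a relative of Phlda2 induced by p53, was 0.25 higher without overlap, with a gap in 2 of 5, and Phlda1 stood between 4.39 and 5.93 with overlapping groups. The p57 relatives Cdkn1a (p21) and Cdkn1b (p27) differed by 0.23 and -0.48, with overlap. Dlk2, Plag1, Grb14 and Slc38a2 differed by 0.05, -0.25, 0.10 and -0.09, also with overlap, and Grb7 was too dim. Slc38a1, a relative of Slc38a4 that was measured on 3 arrays, was highest on B195AP+, at -0.62. The probes of Slc38a1, Plagl2, Phlda1, Grb14 and Cdkn1a had spots in the streaked region of that array.

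The genes whose levels ran most like a member over the 7 arrays were looked up among 12390 genes with a plain symbol, as a description over 7 points that share 1 slide. For H19 they were Chchd10, a mitochondrial protein gene (Pearson r = 0.965), and Ccdc77 (0.963), although the range of Ccdc77 was only 0.55. Chchd10 shared the low end of H19, with -0.38 on Myf5SOR+ Sdc4+, and the pair of highest arrays, with 2.85 on B195AP+ and 2.21 on CD1 Sdc4-. For Cdkn1c they were Pstpip2 (0.991) and Zfp324 (0.987), and for Dlk1 Ttc4 (0.991) and Mast1 (0.987). For Meg3 they were Marchf3 (0.973) and Tbc1d25 (0.953), for Plagl1 Fam83e (0.983) and D11Ertd726e (0.975), and for Grb10 Zfp292 (0.993) and Ap4b1 (0.985).

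CG dinucleotides, the sites of the methylation that marks imprinted copies, were counted in the RefSeq promoter windows (GRCm38.p6, 250 bases before to 50 after a start site), which matched 8 of the 10 genes. Phlda2 and Plagl1 had 26 each, Peg3 13, Dlk1 9 and Slc38a4 5. The windows of Meg3 (1 to 13), Mest (8 to 17) and Grb10 (9 to 45) differed by start site. Taking each gene's window with the most CG, the median was 15 over these 8 and 8 over all 27025 genes, and at least 15 were present in 4 of the 8 (50.0%) and in 37.1% of all genes. Taking the window with the fewest, the medians were 9 and 6, and at least 15 were present in 2 of the 8 (25.0%) and in 32.5% of all genes. These windows are promoters, and the control regions of imprinting were not located. Methylation was not measured here.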

How the data were processed

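The deposited array files hold fluorescence intensity per spot in 1 green channel from Agilent Feature Extraction 11.5.1.1, background-subtracted and not normalized between arrays, per the file headers; the labels name biotin as the label. The deposited series table holds log2 values, connected with lumi in the submitters' processing notes (version not given). How it was centred is unknown, so it served only as an alternative.

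Values are log2 of the processed intensity minus the 75th percentile of the array. Control and outlier spots were dropped, spots of a probe averaged, and probes kept where 3 or more arrays were well above background. The probe with the highest mean stood for its gene. By accession, 27650 probes matched the RefSeq table, 1710 of them under another symbol; 28031 kept the file's name. All 7 arrays were fitted with 3 group means in limma 3.58.1 (R 4.3.3), with Benjamini-Hochberg adjustment over 19761 genes. The fit was checked on simulated data. Python 3.11.15, pandas 2.3.3 and matplotlib 3.10.9 made the tables and plots.

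The Phlda2 folds set the bright group's mean against the dim group's mean of, per array, the probe's own value or the lowest well-above-background signal, whichever is higher. That lowest signal is not a strict limit: on B195AP+ it was -4.54, while Igf2 at -3.83 was not well above background. Named were the 10 members, other imprinted genes without overlap or with a range of at least 3 log2 units, Igf2 and Igf2r, the paralogs and insulin partners, the 2 most similar genes per member, and markers by list. Genes of the Phlda2 and Dlk1 clusters were added after their values were seen. The members and lists were chosen with earlier results of these data known. Alternatives were other scalings, normexp (offset 50), other filters, the line as a block, and leaving out arrays or the streaked region (row 200 and below, column 130 and below). The number of arrays limits precision.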

Additional observations from a re-analysis of the deposited data

Results flagged for a closer look

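Dlk1 moved in opposite directions between Sdc4+ and Sdc4- in the 2 mouse lines that have both. Sdc4+ was 0.33 higher in the Cspg4- line and lower in CD1, at -2.10, so the CD1 difference minus that of the Cspg4- line was -2.44. Plagl1 also differed, with Sdc4+ 1.01 higher in the Cspg4- line and at -0.05 in CD1, a gap of -1.06. That is on its brightest probe; in the Cspg4- line the other 3 probes gave 0.99, 0.31 and -0.02. Both differences between lines were not tested, since each has 1 array on a side.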

How the results depend on the processing

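The limma count of 0 genes for Sdc4+ against Sdc4- stayed at 0 in 17 of 18 alternatives and was 3 with the mouse line as a random block; it was 0 with any of the 6 arrays left out. The median Sdc4+ minus Sdc4- difference of the 8 genes (-0.80) was negative in all 16 alternatives, from -1.02 to -0.53, and from -0.98 to -0.53 with 1 array left out. This median describes genes that were picked with these levels known. It was also negative within the Cspg4- line (-0.84 to -0.003 in 9 alternatives) and within CD1 (-0.79 to -0.43). The median Cspg4+ minus Cspg4- Sdc4- difference of 0.03 over the 8 genes was -0.75 when arrays were scaled to the median, and 3 other alternatives also gave a negative value, so it has no settled sign. H19 kept its direction in all 16 alternatives (-3.53 to -2.22), as did Cdkn1c (-1.12 to -0.63). Normexp correction, whose offset of 50 compresses differences between dim signals, took Phlda2 from 2.74 to 0.56 and Peg3 from -1.65 to -0.16. Plagl1 turned to -0.02 without scaling and without Cspg4- Sdc4-. Without scaling the median difference of all genes was -0.25, against -0.03, and the cause was not tested. Phlda2 and Peg3 have no value where signal on all 7 arrays is required. The labels number each array as its population's only replicate, so arrays were paired by mouse line alone: as a fixed block the line gave 0 calls, and as a random block the 3 given above. Signal over background limits Phlda2, Peg3, Mest, Slc38a4 and Igf2.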
